A study of Mus musculus with 7 samples.

Results

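The Pim kinases are a family of 3 serine/threonine kinases, encoded in the mouse by Pim1, Pim2 and Pim3. They were chosen by name, with their levels in these libraries already known, and are 3 of the 54446 genes counted. All 3 were among the 16438 genes with enough reads to test. Because the genes were selected on this same contrast, their levels and fold changes are given as a description, with no test.

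Pim kinases are constitutively active: they lack the phosphorylation switch that controls most kinases, so how much kinase a cell has is set largely by transcription, RNA and protein turnover, and translation. Cytokine receptors that signal through JAK kinases and STAT transcription factors are the best known inducers of Pim1 and Pim2, and the kinases phosphorylate regulators of apoptosis, the cell cycle and translation, many of them shared with AKT. PIM3 was described in pancreatic and other tumours of endodermal origin, where it phosphorylates the pro-apoptotic protein BAD.

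The RNA came from pancreatic spheroids, 3-dimensional cultures of pancreatic epithelial cells, grown from C57BL/6J wild-type mice. In the untreated group (3 libraries, 01 to 03) the mice had received no caerulein, and in the post-caerulein group (4 libraries, 01 to 04) the mice had received caerulein, which acts like cholecystokinin and brings on acute pancreatitis, before the cells were taken. The sources used here do not give the dose, the interval before culture, the age or sex of the mice, or the number of mice behind a library. All cultures shared one medium with EGF, insulin, hydrocortisone, cholera toxin, bovine pituitary extract and serum supplement, so both groups were measured under growth factor stimulation. The comparison asks how pancreatic epithelium that had been through caerulein treatment differed in culture from epithelium that had not. Libraries were made from polyadenylated RNA and hold 34783738 to 46744497 counted reads each.

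The libraries did not vary independently. The biological coefficient of variation was 8.68% between untreated 01 and 02. It was 5.78% between post-caerulein 02 and 03, and at least 22.0% in every other pair. The authors' deposited fold changes are obtained with a term that sets untreated 03 and post-caerulein 04 (the smaller block) against the other 5 libraries (the larger block). A likelihood ratio refit over the authors' deposited table, 12983 genes, matched every log2 fold change to within 3.2e-08 with this term, while with the group alone single genes differed by up to 4.0. No label says what this block stands for. For the Pim genes, values from the fit with the group alone are given first and those with the block beside them. For other genes, fold changes come from the fit with the group alone unless another fit is named. The 10 ductal epithelial markers were summed in TMM-scaled CPM, counts scaled to a common library size. The sum was 13620 to 15490 in untreated and 14330 to 21410 in post-caerulein libraries. Its largest parts were Krt19, Krt7, Krt8, Krt18 and Cdh1, and weaker ductal markers varied more. Cftr was at 39.1, 38.6 and 1.02 CPM in untreated 01 to 03 and at 4.67 to 4.76 CPM in post-caerulein libraries. Sox9 was at 10.9, 13.0 and 61.7 against 37.1 to 51.7 CPM, and Spp1 at 155 to 291 against 218 to 652 CPM. Ptprc, the pan-leukocyte marker, was at most 0.105 CPM, the 5 endothelial markers together reached at most 0.862 CPM, and 6 of 7 islet markers were under 1 CPM throughout, with Ppy at no reads.

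The 3 genes share one layout. In the counted gene models each has 6 exons on the plus strand. In all of them the third exon is 51 bases and the fifth 177 bases long. The last counted exon is 164 bases in Pim2, 1152 in Pim3 and 1522 in Pim1. The Pim2 model stops 915 bases before the RefSeq end, so its last exon is cut short. Their coding sequences are 74.5% identical between Pim1 and Pim3, 66.1% between Pim1 and Pim2 and 66.5% between Pim2 and Pim3. The longest run of bases shared by any pair is 24, between Pim1 and Pim3.

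The start site sequences are shown because the 3 genes, alike in their coding exons, differed in level and in how they varied between libraries. Each window runs from 250 bases before the RefSeq start site to 50 bases after it (GRCm38.p6, plus strand, 5′ to 3′). Capitals mark GC boxes, CCAAT boxes and E-boxes on either strand. RefSeq lists 2 start sites for Pim1, at chr17:29490535-29490834 and chr17:29492835-29493134, and 1 each for Pim2, at chrX:7878056-7878355, and Pim3, at chr15:88861944-88862243.
Pim1 start 1: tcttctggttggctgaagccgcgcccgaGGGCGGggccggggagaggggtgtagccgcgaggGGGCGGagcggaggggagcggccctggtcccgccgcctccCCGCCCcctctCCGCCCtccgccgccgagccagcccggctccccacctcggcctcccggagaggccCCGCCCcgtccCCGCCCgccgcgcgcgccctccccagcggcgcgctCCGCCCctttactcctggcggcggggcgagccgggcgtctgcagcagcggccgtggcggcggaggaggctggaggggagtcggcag
Pim1 start 2: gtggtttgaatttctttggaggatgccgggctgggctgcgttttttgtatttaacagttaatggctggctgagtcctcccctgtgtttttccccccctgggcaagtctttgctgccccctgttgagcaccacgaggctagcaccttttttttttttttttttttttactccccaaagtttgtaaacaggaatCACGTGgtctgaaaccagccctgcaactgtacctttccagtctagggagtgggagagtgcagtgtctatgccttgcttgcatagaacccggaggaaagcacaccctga
Pim2: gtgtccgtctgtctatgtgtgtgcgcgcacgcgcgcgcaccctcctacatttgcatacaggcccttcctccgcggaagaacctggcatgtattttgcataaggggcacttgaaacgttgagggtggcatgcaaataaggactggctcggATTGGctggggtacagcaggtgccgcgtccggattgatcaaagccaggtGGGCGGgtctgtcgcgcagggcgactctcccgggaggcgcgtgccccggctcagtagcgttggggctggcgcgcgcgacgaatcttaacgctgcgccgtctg
Pim3: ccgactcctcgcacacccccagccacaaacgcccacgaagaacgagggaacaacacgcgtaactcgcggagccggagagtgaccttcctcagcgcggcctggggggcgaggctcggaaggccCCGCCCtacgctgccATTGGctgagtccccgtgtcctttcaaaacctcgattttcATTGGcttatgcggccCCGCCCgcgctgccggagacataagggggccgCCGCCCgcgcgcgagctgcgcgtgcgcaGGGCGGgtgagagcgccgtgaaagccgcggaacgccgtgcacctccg

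These windows were rich in G and C, except at the second Pim1 start. GC content was 81.3% at the first Pim1 start, 49.0% at the second, 62.7% for Pim2 and 69.0% for Pim3, against a median of 52.7% over 32851 RefSeq promoter windows of the same length. The first Pim1 window holds 7 GC boxes, the Pim3 window 4 and the Pim2 window 1, and this motif, with the letters GGGCGG, stands in 35.7% of all windows. Pim3 has 2 CCAAT boxes and Pim2 has 1, a motif found in 37.4% of windows. The second Pim1 window has 1 E-box, spelled CACGTG and found in 7.15% of windows; the shorter hypoxia motif ACGTG, which overlaps it on each strand, is in 19.6%. An NF-kB motif, not capitalised, occurs once in the Pim3 window and in 8.46% of all windows. The STAT motif TTCNNNGAA, present in 8.30% of windows, has no match in these 4 windows. A match describes the letters and is not a measured binding site.

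Pim3 was the most abundant family member and the one with the clearest difference between groups. Its level was 227, 218 and 229 CPM in untreated 01, 02 and 03 and 104, 107, 104 and 126 CPM in post-caerulein 01, 02, 03 and 04. The groups did not overlap: the highest post-caerulein library, 04, stayed far below the lowest untreated one. Non-overlapping groups with the post-caerulein libraries lower were seen for 764 of the 16438 genes tested (4.65%).

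The group means of Pim3 were 225 ± 6.00 CPM (SD, n = 3) and 110.3 ± 10.4 CPM (SD, n = 4), a ratio of 0.491. The log2 fold change of Pim3, post-caerulein against untreated, was -1.03 ± 0.11 (SE), and -1.02 ± 0.08 with the block. The difference was of like size on either side of the block, with untreated 03 at 229 against post-caerulein 04 at 126 CPM in the smaller block. Pim3 (ENSMUSG00000035828.11) lies on chromosome 15 from 88862186 to 88865726, and its counts rest on 3715 to 10336 reads per library. The summed acinar and islet markers were low in both groups and higher in post-caerulein libraries, opposite to Pim3. The 7 acinar markers summed to 0.822 to 1.54 CPM in untreated and 2.50 to 10.6 CPM in post-caerulein libraries, with 3 of them under 1 CPM throughout, and the 7 islet markers to 0.0248 to 0.400 and 0.463 to 4.51 CPM. Single markers differed: Ctrb1, a digestive protease, was at 0.0422 to 0.223 and 0.971 to 7.32 CPM, while Bhlha15, an acinar transcription factor, overlapped at 0.759 to 1.49 and 0.561 to 1.36 CPM. The fibroblast markers summed to 0.169 to 21.3 and 3.00 to 7.33 CPM, so they overlapped. The part of any of these in the Pim3 difference was not tested. In bulk RNA, fewer cells with the transcript and less transcript per cell cannot be told apart.

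Pim1, the family member first identified as a proviral integration site in lymphomas, varied most between libraries. It was at 38.5, 33.7 and 101 CPM in untreated 01, 02 and 03 and at 24.0, 34.1, 32.0 and 41.8 CPM in post-caerulein 01 to 04. The groups overlapped, and untreated 03 stood alone at the top, well above every other library of either group. The means were 57.8 ± 37.8 CPM (SD, n = 3) and 33.0 ± 7.30 CPM (SD, n = 4).

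The log2 fold change of Pim1 was -0.81 ± 0.39 (SE) with the group alone and -0.57 ± 0.22 with the block. Its size rests on untreated 03: without that library it was -0.11 ± 0.21, and within the larger block alone -0.24. In both groups the library of the smaller block held the most Pim1, and the block term of the fit put those libraries 0.99 higher on the log2 scale. Cd68, a lysosomal protein gene used as a macrophage marker, was also highest in untreated 03, at 97.9 CPM against 11.7 to 35.1 CPM elsewhere. The other leukocyte markers did not share this level: in untreated 03 they were at 0.289 CPM or less, with Adgre1 and Tyrobp at 0 CPM. The 8 fibroblast markers summed to 21.3 CPM there against 0.169 to 7.33 CPM in the other libraries, and 6 of the 8 leukocyte markers were under 1 CPM in all libraries. The part of either in the level of Pim1 was not tested.

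Pim1 (ENSMUSG00000024014.7) lies on chromosome 17 from 29490812 to 29496111 and had 857 to 4558 reads per library. The antisense gene Gm26885 shares 468 exon bases with it and was given 243 reads over all 7 libraries. The strand setting of the counting is not given, so reads over the shared bases cannot be assigned to either gene with certainty.

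Pim2, best known from lymphoid cells, was low and nearly level. It was at 4.18, 5.50 and 5.12 CPM in the untreated libraries and at 4.91, 4.55, 4.68 and 4.35 CPM in the post-caerulein libraries. The post-caerulein values all lay within the untreated range. The means were 4.94 ± 0.679 CPM (SD, n = 3) and 4.62 ± 0.233 CPM (SD, n = 4), and the log2 fold change was -0.09 ± 0.19 (SE), or -0.10 ± 0.17 with the block.

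Pim2 (ENSMUSG00000031155.16) lies on the X chromosome from 7878319 to 7882517, with 164 to 261 reads per library. The counted gene model stops 915 bases before the RefSeq end of Pim2, so reads from those bases are not in its count. The models of Pim1 and Pim3 end where RefSeq ends them. In the authors' deposited table of 12983 genes the log2 fold changes were -1.01 for Pim3, -0.55 for Pim1 and -0.09 for Pim2.

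**Figure D1:**
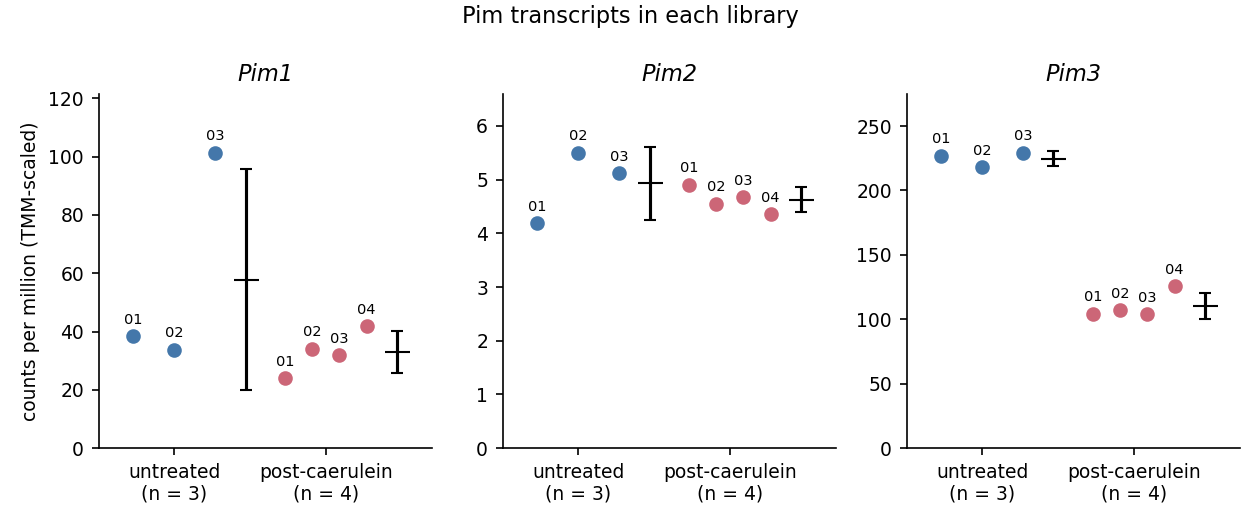
Level of each Pim gene in CPM (vertical axes, each from 0 and on its own scale) in the 3 untreated and 4 post-caerulein libraries. Points are libraries with their numbers, and black bars are mean ± SD; Pim3 separates by group, Pim1 is high in untreated 03 alone, and Pim2 overlaps.

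Levels of different genes were compared per kilobase of counted exon. The Pim2 model holds 1113 bases, 1110 of them coding, and lacks the last 915 bases of the RefSeq gene. The models of Pim1 and Pim3 reach their RefSeq ends, so the levels, shares and ratios compare unlike parts of the transcripts. The effect of this on the level of Pim2 was not tested. In all 7 libraries the order was Pim3, then Pim1, then Pim2. Pim3 was at 92.6 ± 2.47 CPM per kilobase in untreated (SD, n = 3) and 45.4 ± 4.30 in post-caerulein libraries (SD, n = 4). Pim1 was at 21.9 ± 14.3 and 12.5 ± 2.77, and Pim2 at 4.43 ± 0.610 and 4.15 ± 0.209 CPM per kilobase. Neighbours in this order did not overlap: the lowest Pim3 value, 42.8, was above the highest Pim1 value, 38.4, and the lowest Pim1 value, 9.11, above the highest Pim2 value, 4.95.

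Among the tested genes, ordered by level per kilobase, Pim3 stood at percentile 95.9 to 96.2 in untreated libraries and 89.3 to 92.5 in post-caerulein libraries. Pim2 lay at percentile 45.3 to 49.5 in the 7 libraries, and Pim1 at 61.6 to 89.0. Pim3 was thus an abundant message in both groups, and Pim2, over its counted bases, a middling one.

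The summed family level followed Pim3. It was 107.5 to 137.6 CPM per kilobase in untreated libraries, with a mean of 119 ± 16.3 (SD, n = 3), and 56.5 to 71.6 in post-caerulein libraries, with a mean of 62.1 ± 6.61 (SD, n = 4). Pim3 made up 78.6% ± 8.57 (SD, n = 3) of the sum in untreated and 73.3% ± 1.86 (SD, n = 4) in post-caerulein libraries. Untreated 03 held the lowest Pim3 share of all, 68.7%, through its Pim1. The ratio of Pim3 to Pim2 was 18.2 to 24.9 in untreated and 9.74 to 13.3 in post-caerulein libraries. The ratio of Pim3 to Pim1 was 6.41, 7.04 and 2.46 in untreated 01 to 03 and 4.71, 3.41, 3.54 and 3.27 in post-caerulein 01 to 04, so it overlapped between the groups.

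**Figure D2:**
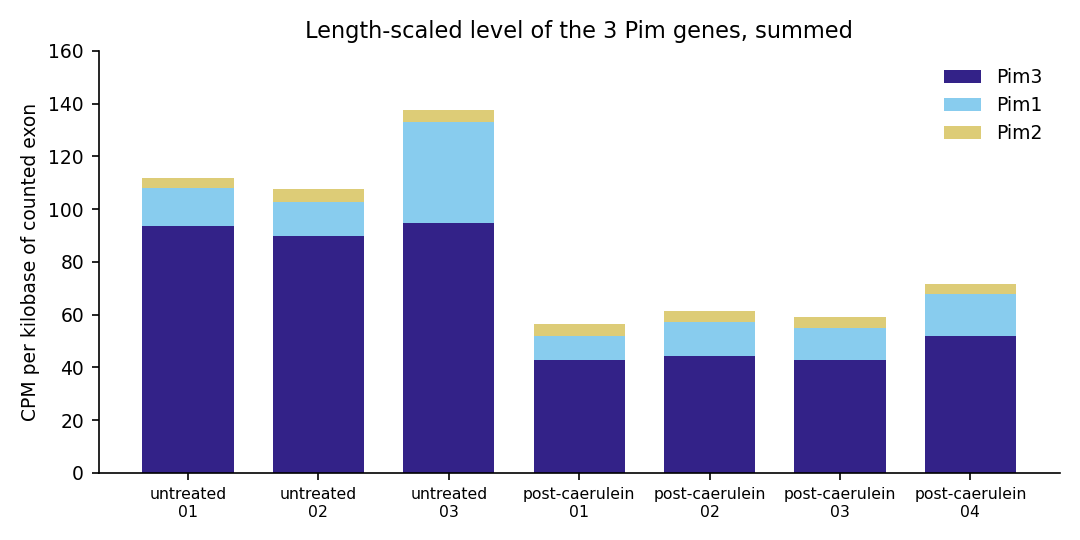
Summed level of the 3 Pim genes in CPM per kilobase of counted exon (vertical axis) in each of the 7 libraries (horizontal axis), stacked by gene. Pim3 fills most of each bar, and the bars run from 107.5 to 137.6 in untreated and from 56.5 to 71.6 in post-caerulein libraries.

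The direction and size for Pim3 changed little with the processing. Over 19 alternative settings its log2 fold change lay between -1.14 and -0.98, whereas that of Pim1 ran from -1.08 to -0.11 and that of Pim2 from -0.20 to -0.01. All of these values were negative for each gene. The widest swing for Pim1 came from leaving out untreated 03.

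**Figure D3:**
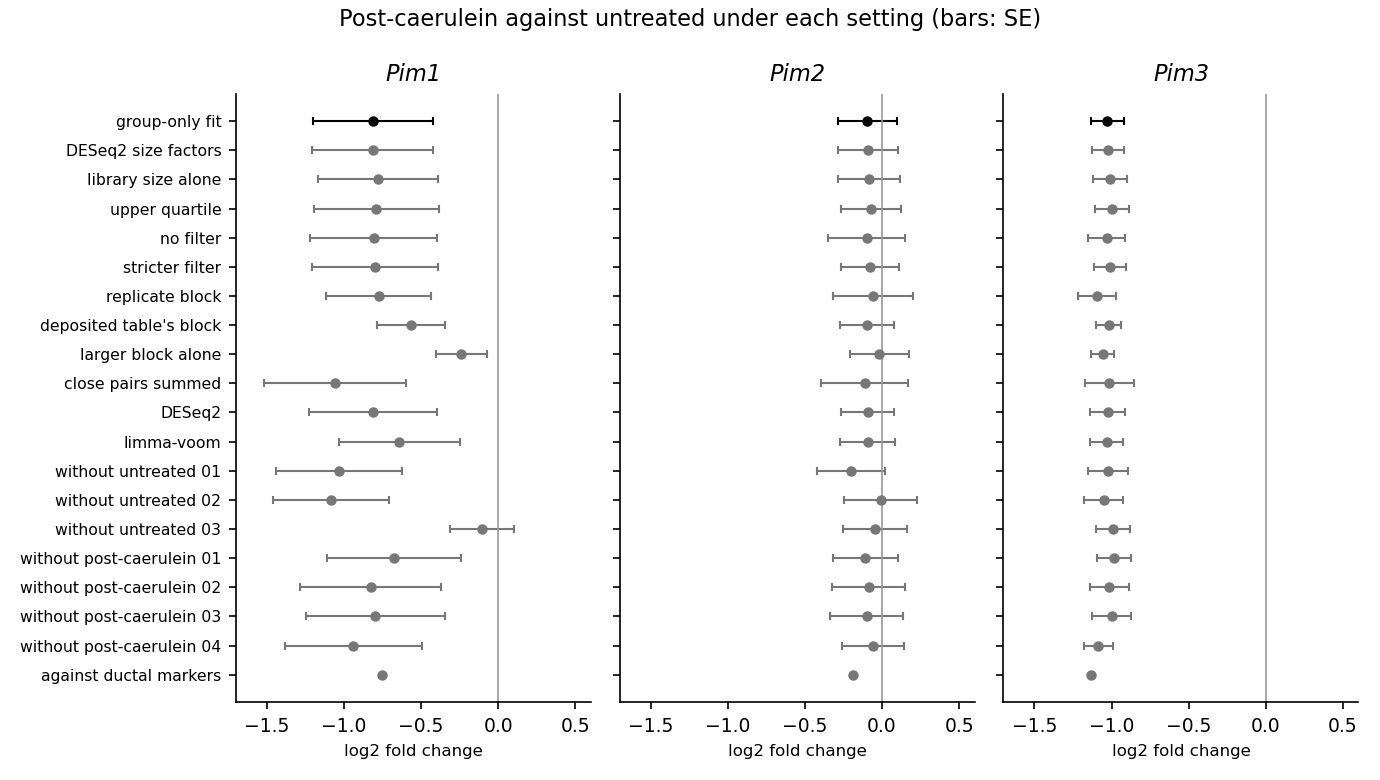
Log2 fold change, post-caerulein against untreated (horizontal axis), of each Pim gene under the group-only fit (black) and 19 alternatives (grey), with SE bars where the fit gives one. Pim3 stays between -1.14 and -0.98, while Pim1 nears 0 without untreated 03.

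The genes whose profile over the 7 libraries was most like that of each Pim gene were ranked by the root-mean-square difference of centred log2 CPM, among 10853 candidates. These are descriptions over 7 libraries that share a block and close pairs. The nearest to Pim3 was Smad7, an inhibitor of TGF-beta signalling, at 0.12 on the log2 scale. Smad7 was at 29.5, 29.9 and 25.8 CPM in the untreated group and 13.2, 14.0, 14.0 and 19.3 CPM in the post-caerulein group. Its groups did not overlap, and as with Pim3 its highest post-caerulein library was 04. Next came Rhobtb2 (0.13), Btbd11, a BTB domain gene (0.14), Anxa8, an annexin (0.16), and Plpbp, a pyridoxal phosphate binding protein (0.18). In all, 11 genes lay within 0.20 of Pim3.

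The genes nearest to Pim1 shared its peak in untreated 03. Mpzl2, an epithelial adhesion molecule, was closest at 0.11, with 172 CPM in untreated 03 against 52.1 to 72.2 CPM elsewhere. Trim15, Gnpda1, Ercc5 and Syne3 followed at 0.15 to 0.16, and 9 genes lay within 0.20. The profile of Pim2 was nearly flat and had 2911 genes within 0.20, and its nearest were Nktr, Lrrc45, Eps15l1, Sh3glb2 and Pabpn1. Between the family members' own profiles the differences were 0.50 to 0.60.

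**Figure D4:**
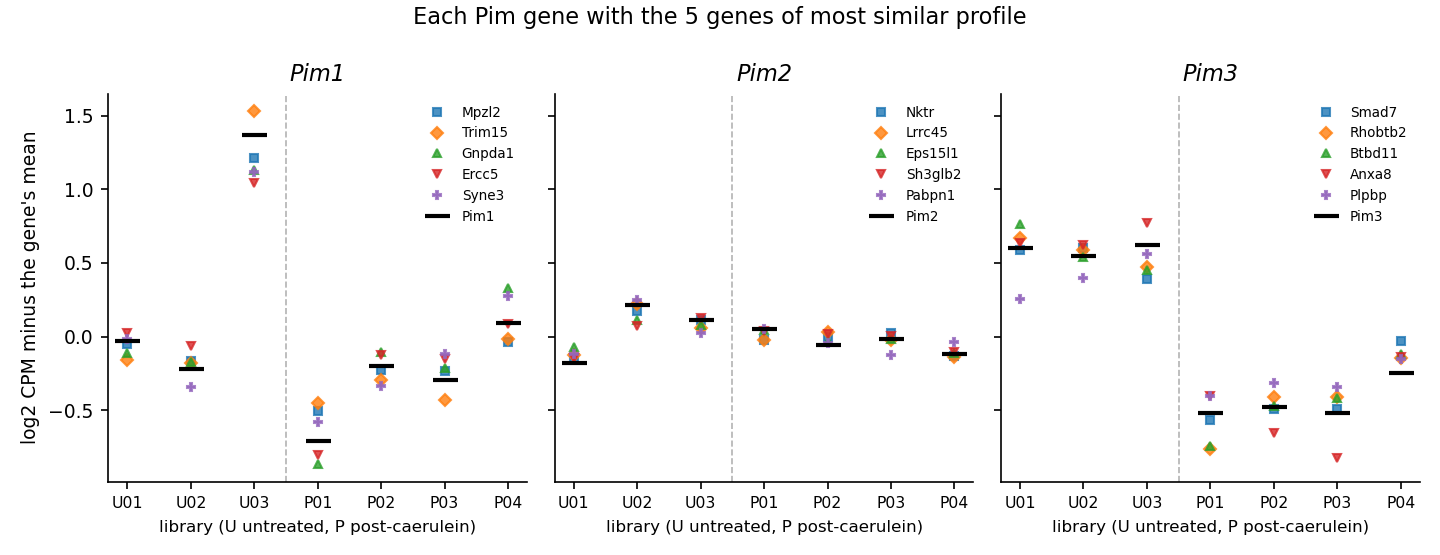
Log2 CPM minus each gene's mean (vertical axis) in the 7 libraries (horizontal axis) for each Pim gene (black bars) and the 5 genes of most similar profile (coloured symbols). The Pim3 group steps down between untreated and post-caerulein libraries, the Pim1 group peaks in untreated 03, and the Pim2 group is nearly level.

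The genes around the 3 Pim loci differed less between groups than Pim3 did, by point estimate. Within 100 kilobases of Pim3, 3 other genes had enough reads to test: Creld2 at -0.18 ± 0.12 (SE), Zbed4 at -0.17 ± 0.21 and Alg12 at -0.05 ± 0.14 on the log2 scale. Near Pim2, 7 genes were tested, among them Slc35a2 at -0.10 ± 0.12 and Otud5 at -0.08 ± 0.10, which lie 1511 and 1693 bases away. Near Pim1, Tbc1d22b was at -0.02 ± 0.09 and the antisense gene Gm26885, with few reads, at -0.36 ± 0.78. Of the 12 tested neighbours, 0 were called in either of the fits described below, with or without the block. Over all genes those fits called 1.53% with the block and 0% without it. The 0 calls therefore do not set these neighbours apart from other genes.

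The genes that act before and after Pim kinases were described from 7 lists with 103 members, of which 96 had enough reads to test. Over all genes, the quasi-likelihood test with the group alone called 0 of 16438 (0%), with 1561 at an unadjusted p under 0.05. It called 0 of the 96 pathway genes, 18 of which had an unadjusted p under 0.05 (18.8%, against 9.50% of all genes). By list the 18 were 5 of 19 receptors and JAK kinases, 1 of 13 transcription factors and 4 of 13 STAT-induced genes. The rest were 2 of 23 substrates, 4 of 10 MYC network genes and 2 of 11 AKT and mTOR kinases. The lists were chosen with earlier results of these data known, so the shares here and below carry no test of enrichment. DESeq2 called Osmr higher and Socs3 lower, 2 of 96, where it called 3.1% of all genes, and limma-voom called 0. With the block, 1.53% of all genes were called, 0.876% lower and 0.651% higher, and 1 of the 96 pathway genes, Cebpd, was lower. The median log2 fold change of the pathway genes was 0.02, against -0.02 for all genes tested.

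By overlap of the groups, 8 of the 96 pathway genes were lower in every post-caerulein library than in every untreated one (8.33%, against 4.65% of all genes). In the other direction, 4 of the 96 were higher in every post-caerulein library (4.17%, against 4.67%). The genes named below were picked partly after their values were seen.

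The receptors and JAK kinases that induce Pim1 and Pim2 through STAT factors were measured for 19 of 23 members, with a median log2 fold change of 0.15. None passed the test, and 15 of the 19 were positive, where 7740 of the 16438 genes tested were. Osmr, the receptor for oncostatin M, was at 23.3, 21.4 and 38.6 CPM in the untreated group and 91.1, 85.5, 85.9 and 44.9 CPM in the post-caerulein group. The groups of Osmr did not overlap, with untreated 03 and post-caerulein 04 closest to each other. Its log2 fold change was 1.47 ± 0.31 (SE), and its adjusted p was 0.215 in edgeR's quasi-likelihood test, with 0.00015 to 1 over the alternatives.

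Lifr, the receptor for leukaemia inhibitory factor, also separated, at 12.4 to 17.4 CPM against 17.4 to 41.5 CPM. The margin between its groups was small, since untreated 02 was at 17.40 and post-caerulein 04 at 17.41 CPM. Il6st, the signalling chain shared by these receptors, was at 219, 197 and 204 CPM against 325, 220.2, 219 and 200.5 CPM. Its groups overlapped, and post-caerulein 01 was the highest. Jak1 was at 212 ± 24.7 CPM (SD, n = 3) and 234 ± 10.4 CPM (SD, n = 4), and Jak2 at 72.0 ± 3.61 and 73.6 ± 7.49 CPM. Il7r, a lymphoid cytokine receptor, had no reads in any library, and Prlr, Il2rg and Csf2rb were too low to test.

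The transcription factors were measured for all 13 members, with a median of 0.09, and none passed the test. Stat3, the factor downstream of Il6st, was at 182, 177 and 194 CPM in the untreated group and 195, 189, 188 and 172 CPM in the post-caerulein group, a log2 fold change of 0.01 ± 0.10 (SE). Stat5a was at 13.8 ± 5.69 and 15.8 ± 2.17 CPM and Stat5b at 24.6 ± 0.562 and 26.4 ± 2.08 CPM (SD, n = 3 and 4). Stat6, which acts below the interleukin-4 receptor, did not overlap between groups, though the difference was small, at 134 to 136 CPM against 139 to 160.4 CPM.

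Genes that STAT factors induce, which Pim1 belongs to, had a median of 0.01 over 13 of 13 members. In this list 3 of 13 genes did not overlap and were lower (23.1%, against 4.65% of all genes), a share of few genes that carries no test. Socs3, the feedback inhibitor of Il6st signalling, was at 18.0, 16.3 and 19.5 CPM in the untreated group and 14.7, 10.3, 10.8 and 10.6 CPM in the post-caerulein group. Every post-caerulein library was below every untreated one, as for Pim3. The log2 fold change of Socs3 was -0.63 ± 0.17 (SE), with an adjusted p of 0.281 by the quasi-likelihood test and 0.033 to 1 over the alternatives.

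Cebpb and Junb, transcription factors of the acute-phase and immediate early responses, likewise did not overlap. Cebpb was at 96.8 ± 13.8 and 69.7 ± 9.37 CPM, and Junb at 352 ± 85.0 and 233 ± 25.4 CPM (SD, n = 3 and 4). Cebpd, a related acute-phase factor, was at 117, 120 and 37.3 CPM in the untreated group and 69.0, 59.5, 48.9 and 14.0 CPM in the post-caerulein group. Its groups overlapped, and in each group the library of the smaller block was the lowest, opposite to Pim1. With the group alone the log2 fold change of Cebpd was -0.93 ± 0.56 (SE), and the quasi-likelihood test did not call it. Over the alternatives to that fit, which include the block fit, its adjusted p ran from 0.0065 to 1. With the block its log2 fold change was -1.12 ± 0.14 (SE), with an adjusted p of 0.0231 by the quasi-likelihood test. Leaving out untreated 01 or 02, or post-caerulein 02 or 03, ended this call.

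The list held values in both directions, with 7 of 13 positive. Icam1, an adhesion molecule, was at 5.58 to 16.9 CPM against 8.26 to 82.8 CPM, Socs2 at 38.9 ± 20.9 and 47.9 ± 24.2 CPM, and Cish at 26.9 ± 2.72 and 22.4 ± 4.51 CPM (SD, n = 3 and 4). All 3 overlapped between groups.

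The genes that set the stability and translation of Pim proteins, namely chaperones, the PP2A phosphatase that promotes Pim1 degradation and the cap-binding factor Eif4e, lay close to 0, with a median of -0.06. All 7 were tested, none passed, no pair of groups separated, and 0 of 7 had an unadjusted p under 0.05. Hsp90aa1, a chaperone that stabilises Pim1, was at 762 ± 34.1 and 723 ± 101 CPM, and Eif4e at 84.5 ± 3.87 and 85.2 ± 4.18 CPM (SD, n = 3 and 4).

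Substrates of the Pim kinases were tested for 23 of 26 members, with a median of -0.08 and 0 calls. These transcripts say nothing of phosphorylation, which was not measured. Bad was at 23.4, 24.1 and 16.1 CPM in the untreated group and 31.3, 19.7, 21.5 and 20.9 CPM in the post-caerulein group, so its groups overlapped. Cdkn1b, the cell cycle inhibitor p27, was at 72.8 ± 11.7 and 60.2 ± 11.8 CPM, and Eif4ebp1, a repressor of cap-dependent translation, at 256 ± 61.4 and 222 ± 22.9 CPM (SD, n = 3 and 4). Foxo3, a pro-apoptotic transcription factor, was at 229, 201 and 179 CPM against 153, 153, 167 and 118 CPM, with no overlap. Its log2 fold change was -0.46 ± 0.15 (SE), with an adjusted p of 0.350 by the quasi-likelihood test and 0.029 to 1 over the alternatives. Numa1, a spindle protein, also did not overlap. Cxcr4, a chemokine receptor, was too low to test, at 0.126 CPM or less.

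The MYC network, whose proteins cooperate with Pim kinases in lymphoma, had 10 of 10 members tested, a median of 0.07 and 0 calls. Of these 10, 4 had an unadjusted p under 0.05 in the group-only fit, all lower (40%, against 9.50% of all genes). They were Mycn, Mycl, Mxd1 and Mxi1, while 6 of the 10 members had a positive log2 fold change. Myc was at 43.3, 36.2 and 206 CPM in the untreated group and 88.1, 144, 154 and 202 CPM in the post-caerulein group. It overlapped between groups and in each group was highest in the library of the smaller block, as Pim1 was. Its direction between groups was opposite to that of Pim1. The log2 fold change of Myc was 0.63 ± 0.61 (SE) with the group alone, with an adjusted p of 0.858 by the quasi-likelihood test. It was 1.19 ± 0.38 with the block and 1.72 ± 0.25 within the larger block alone, where Pim1 was at -0.24. Mycn was low but separated, at 3.40 to 4.32 CPM against 0.833 to 2.80 CPM. Its log2 fold change was -1.26 ± 0.40 (SE), with an adjusted p of 0.349 by the quasi-likelihood test and 0.064 to 1 over the alternatives.

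The AKT and mTOR kinases, which share substrates with Pim kinases, had 11 of 11 members tested, a median of -0.03 and 0 calls. Akt1 was at 236 ± 5.78 and 263 ± 38.3 CPM (SD, n = 3 and 4). Mtor and Rictor did not overlap and were slightly lower, at 97.1 ± 3.36 and 87.8 ± 4.76 CPM and at 101 ± 2.32 and 88.3 ± 4.45 CPM. Sgk3, an AKT-related kinase, did not overlap in the other direction, at 6.93 to 13.2 CPM against 13.8 to 15.6 CPM.

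**Figure D5:**
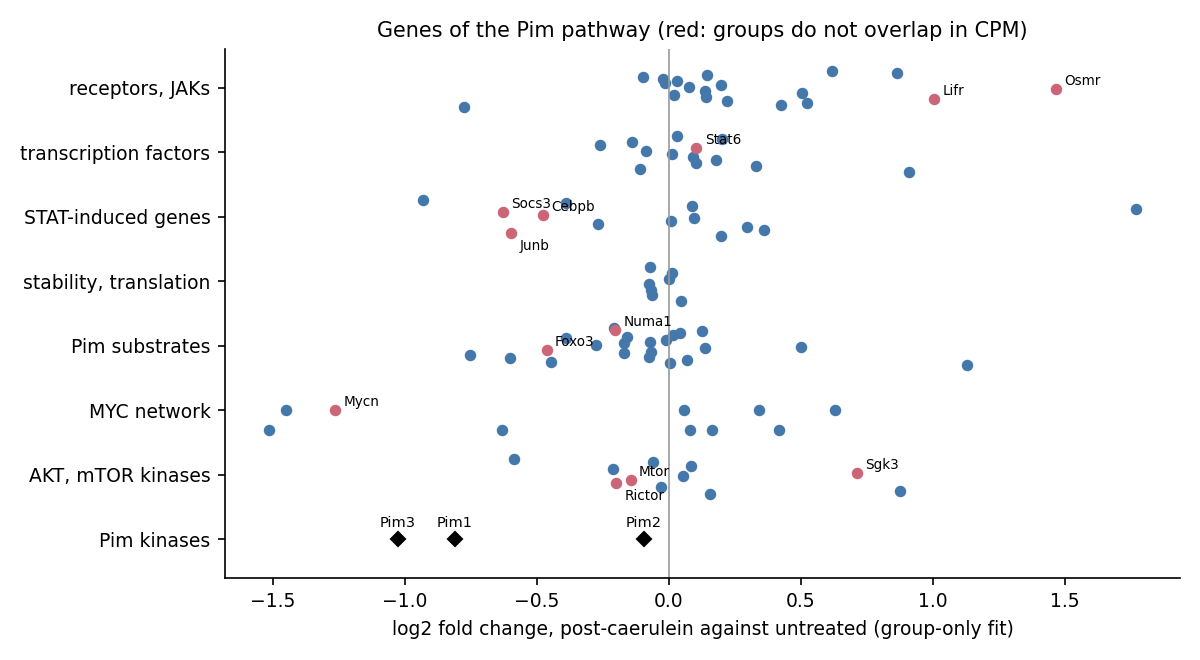
Log2 fold change, post-caerulein against untreated, in the group-only fit (horizontal axis) for the 96 tested genes of the 7 Pim pathway lists and the 3 Pim genes (black diamonds). Red points are the 12 pathway genes whose groups do not overlap; no pathway gene passed the test in this fit.

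More pathway genes were called where the smaller block was left out. Within the larger block alone, 26 of the 96 were called, 20 higher and 6 lower (27.1%, against 13.8% of all genes). These included 8 of the 19 receptors and JAK kinases, all higher, among them Il6ra (1.61 ± 0.11, SE), Osmr (1.99 ± 0.09), Lifr (1.09 ± 0.19) and Jak3 (1.00 ± 0.18). Leaving out untreated 03 alone gave 13 of 96, against 6.83% of all genes. In the larger block the untreated group consists only of the close pair 01 and 02, and the post-caerulein group holds the close pair 02 and 03, so the spread behind these calls comes from those pairs and post-caerulein 01. In the same libraries Pim3 was -1.06 on the log2 scale, Pim1 -0.24 and Pim2 -0.02.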

How the data were processed

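Pim1, Pim2 and Pim3, the pathway lists and the marker lists were chosen with earlier results of these data known. The genes named by rule were the Pim genes, the 5 nearest to each in profile, list members called in either fit and 17 that are always given; other list members were named after their values were seen. Groups and replicate numbers come from the sample titles and treatment labels. As no source ties a library to an animal or culture of its own, p-values reflect only how far these libraries spread, and that spread can be technical.

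The table the authors deposited holds raw read counts for each gene with its exon coordinates, per the file headers. It was made with featureCounts 0.6.1 on GRCm38 (mm10), per the submitters' processing notes. Neither the aligner nor the strand setting is given in the sources used here. Their deposited edgeR table (edgeR 3.2.2, per the submitters' processing notes) holds log2 fold changes, average log2 CPM, a likelihood ratio score and p-values with false discovery rates, per the file headers; only its log2 fold changes were used.

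Counts were filtered with filterByExpr (minimum count 10, total 15), scaled by TMM and tested with edgeR 4.0.16 (quasi-likelihood, robust, two-sided, group as the only term), with Benjamini-Hochberg adjustment over 16438 genes and a call at an adjusted p under 0.05. The block fit was added because the deposited fold changes need it. CPM uses TMM-scaled library sizes, and the limit that a count of 0 allows (3 counts) equals 0.0631 to 0.0841 CPM, for counting error only. Likeness used genes with an average log2 CPM of at least 1. Coding identity used GENCODE transcripts, and promoter windows came from RefSeq (GRCm38.p6), matched by symbol for all 3 genes. Alternatives were other scalings and filters, blocks, DESeq2 1.42.0, limma-voom 3.58.1, summed close pairs and each library left out. The fit was tested on simulated data. Work ran in R 4.3.3.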

Additional observations from a re-analysis of the deposited data

Results flagged for a closer look

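Within the 4 post-caerulein libraries, a library was marked where its gap to the nearest other value, divided by the range of the group, exceeded Dixon's critical value of 0.829. Of 44 genes examined, 8 were marked. The critical value marks about 1 in 20 sets of independent values, and post-caerulein 02 and 03 are too close for that. The genes nearest to each Pim gene were also picked for like profiles. The 8 marks therefore cannot be set against that rate. Post-caerulein 04 was the library that stood apart for Pim3 (126 CPM, the highest), for Smad7 (19.3 CPM, the highest), for Osmr (44.9 CPM, the lowest) and for Cdkn1b (42.6 CPM, the lowest). Post-caerulein 01 stood apart, as the highest, for Il6st (325 CPM), Socs3 (14.7 CPM), Bad (31.3 CPM) and Stat6 (160.4 CPM). The other 2 libraries of the group, 02 and 03, are a close pair, and the group of 3 untreated libraries was not examined in this way.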

How the results depend on the processing

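Pim3 lay between -1.14 and -0.98 under the 19 alternatives run; divided by the ductal markers, an alternative chosen after seeing the data, it was -1.14. Pim1 ran from -1.08 to -0.11 when each library was left out, the last without untreated 03. The number of genes called depended on the design. It was 23 with no filter on low counts, 251 with the block of the deposited table, 2247 in the larger block alone, 509 with DESeq2, and 0 to 1149 when each library was left out (1149 without untreated 03, 57 without post-caerulein 04). Of the 96 pathway genes, 1 was called with that block, 26 in the larger block alone, 2 with DESeq2 and 0 to 13 when each library was left out. With the block kept, leaving out each library gave 0 to 2267 genes and 0 to 26 pathway genes; the highest values were without untreated 03 (2267 and 26) and without post-caerulein 04 (2086 and 25), when the other library of the smaller block carries no information on the groups. Of the 5 genes nearest to Pim2, 1 remained with close pairs averaged.

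Libraries with the same replicate number were not treated as paired, since no label pairs them. For numbers 01, 02 and 03 the correlations of their deviations from the group means were 0.37, 0.14 and -0.21. Untreated 01 and 02 both correlated best with post-caerulein 01, and untreated 03 with post-caerulein 04. So few libraries, with a block among them, cannot show whether they were paired. With the replicate number as a block, 0 genes were called, and the log2 fold changes were -1.10 for Pim3, -0.77 for Pim1 and -0.06 for Pim2. By counting error alone, Pim2, with 164 to 261 reads per library, is the least precise of the family.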
